A study of Mus musculus with 4 samples.

Results

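A set of 10 cardiac transcription factors was followed in mouse hearts at postnatal day 7 (P7): *Gata4*, *Gata6*, *Nkx2-5*, *Tbx5*, *Tbx20*, *Hand1*, *Hand2*, *Mef2a*, *Mef2c* and *Mef2d*. They were taken by name as 10 of the 24454 genes in the count table, and each was found by its Entrez Gene identifier. *Hand1* was too low for the test, and the other 9 were among the 14266 genes tested.

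The data are 4 RNA-seq libraries, WH7 and WH8 from control (Ctrl) hearts and WH9 and WH10 from miR-128OE hearts, in which cardiomyocytes (CMs) are made to produce the microRNA miR-128. The Ctrl mice carried miR-128TetRE, a miR-128 transgene placed in the Rosa26 locus behind a tetracycline-responsive promoter, and the miR-128OE mice carried α-MHC-tTA; miR-128TetRE. The transactivator tTA is driven by the α-myosin heavy chain promoter, so the transgene is switched on in CMs once doxycycline is withdrawn (Tet-off). Both groups thus shared the miR-128TetRE allele, only the miR-128OE group carried tTA, and miR-128 and tTA cannot be told apart here. The methods give a C57BL/6 background for the mice. The tissue is given as heart, and nothing says whether the 2 libraries of a group came from separate animals, so p-values measure the spread between libraries, which may be technical.

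The libraries held 12385863 counts in WH7, 8096870 in WH8, 12440553 in WH9 and 14359838 in WH10. Levels are given as CPM, the counts scaled to a common library size with TMM factors, and 3 counts, the detection floor used, corresponded to 0.233, 0.360, 0.252 and 0.214 CPM in WH7, WH8, WH9 and WH10. Such floors cover counting error only, since reads without molecular identifiers are not independent molecules. The counts of the 2 libraries of a group differed by more than sampling noise, with a chi-square of 11.7 per degree of freedom between WH7 and WH8 and 5.55 between WH9 and WH10, so each library was counted as 1 replicate.

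These factors form the core of the regulatory program of heart muscle. NKX2-5 is a homeobox factor, GATA4 and GATA6 are zinc finger factors, TBX5 and TBX20 are T-box factors, HAND1 and HAND2 are basic helix-loop-helix factors, and the MEF2 proteins are MADS-box factors. They bind enhancers of sarcomere, natriuretic peptide and ion channel genes together and act on one another's genes, and in the embryo they set up the heart fields, the chambers, the valves and the conduction system. After birth most of them stay on in CMs, where MEF2 activity is held down by class II histone deacetylases, HAND proteins work with E proteins and GATA factors work with FOG cofactors.

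The mature miR-128-3p and the matches to its seed in the 3′UTRs of these factors are shown because a miRNA acts on a transcript through such a match. The 21-nucleotide miRNA is made from *Mir128-1* (chromosome 1, 128202404-128202424, plus strand) and *Mir128-2* (chromosome 9, 112118644-112118664, minus strand) in GRCm38.p6, and the sequence is from RefSeq. Capitals mark bases 2 to 8, the seed, in the miRNA, and the matching 7 bases in each 3′UTR site, which is written 5′ to 3′ on the strand of the gene.
miR-128-3p: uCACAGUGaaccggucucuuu
Tbx5 site: caggaacagaACTGTGAcacacagcaa
Tbx20 site: ttatgcttctACTGTGAtggtaaaaca
Mef2d site: tgcgtgcatgCACTGTGtgtgtgtgtg
The letters searched were CACTGTG, which pairs with bases 2 to 8, and ACTGTGA, which pairs with bases 2 to 7 and ends in A. They share ACTGTG, so an overlapping pair was counted as 1 site, and only the transcript's own strand was read. The *Tbx5* site lies at chr5:119884389-119884395 in the last of 9 exons, the *Tbx20* site at chr9:24719047-24719053 in the last of 8 exons on the minus strand, and the *Mef2d* site at chr3:88171099-88171105 in the last of 11 exons (GRCm38, GENCODE M21).

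*Gata6* held 1 more match, ACTGTGA, in its 3′UTR of 1153 bases, and its sequence is not shown. The longest annotated 3′UTRs of *Gata4* (1453 bases), *Nkx2-5* (358), *Hand1* (894), *Hand2* (773), *Mef2a* (3705) and *Mef2c* (4449) held no match to these letters. The 3′UTRs with a match measured 1732 bases in *Tbx5*, 7314 in *Tbx20* and 3443 in *Mef2d*. Of 13498 tested genes with an annotated 3′UTR, 33.2% held a match, and of 3′UTRs of at least 3000 bases, 65.0% did, so 4 of the 10 factors with a match is close to the share over all genes. Over all tested genes the median log2 fold change was −0.03 with a match and 0.01 without.

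The miR-128 hairpins were hardly counted in these libraries. No read was counted on *Mir128-1* (0 in each of the 4 libraries), while *Mir128-2* was counted 0 times in WH7, 0 in WH8, 2 in WH9 and 10 in WH10. These counts do not measure the mature miRNA, since 21-base molecules are lost in most mRNA libraries, and no level of miR-128 was derived from them.

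The libraries also differed in sex and in the level of atrial markers. *Xist*, the RNA that coats the silent X of female cells, was counted 14543 times in WH7, 11339 in WH8, 94 in WH9 and 132 in WH10. *Ddx3y*, on the Y chromosome, was counted 13, 7, 1442 and 1768 times in the same order, and *Eif2s3y*, also on the Y chromosome, 4, 4, 1352 and 1645 times. Sex and genotype therefore cannot be told apart in any difference given here. None of the 10 factors lies on a sex chromosome.

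Atrial myocyte markers separated WH7 from WH8 within the Ctrl group. *Nppa*, the gene of atrial natriuretic peptide and 1 of the 10 atrial markers, stood at 2642 CPM in WH7, 233 in WH8, 439 in WH9 and 921 in WH10. *Myl7*, the atrial regulatory light chain, stood at 1949, 281, 886 and 876 CPM. The summed level of the list was 6274 CPM in WH7, 843 in WH8, 2413 in WH9 and 3040.5 in WH10. All 10 markers were lowest in WH8 and 9 of the 10 were highest in WH7. None passed the edgeR test between genotypes, 0 had an unadjusted p under 0.05, and DESeq2 called 0. Fibroblast markers were also lowest in WH8, in 8 of 8 genes, with a summed level of 8316, 5420, 7645 and 8082 CPM in WH7, WH8, WH9 and WH10, and so were 6 of 7 endocardial and 5 of 7 epicardial markers. WH8 was also the library with the fewest counts.

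**Figure D1:**
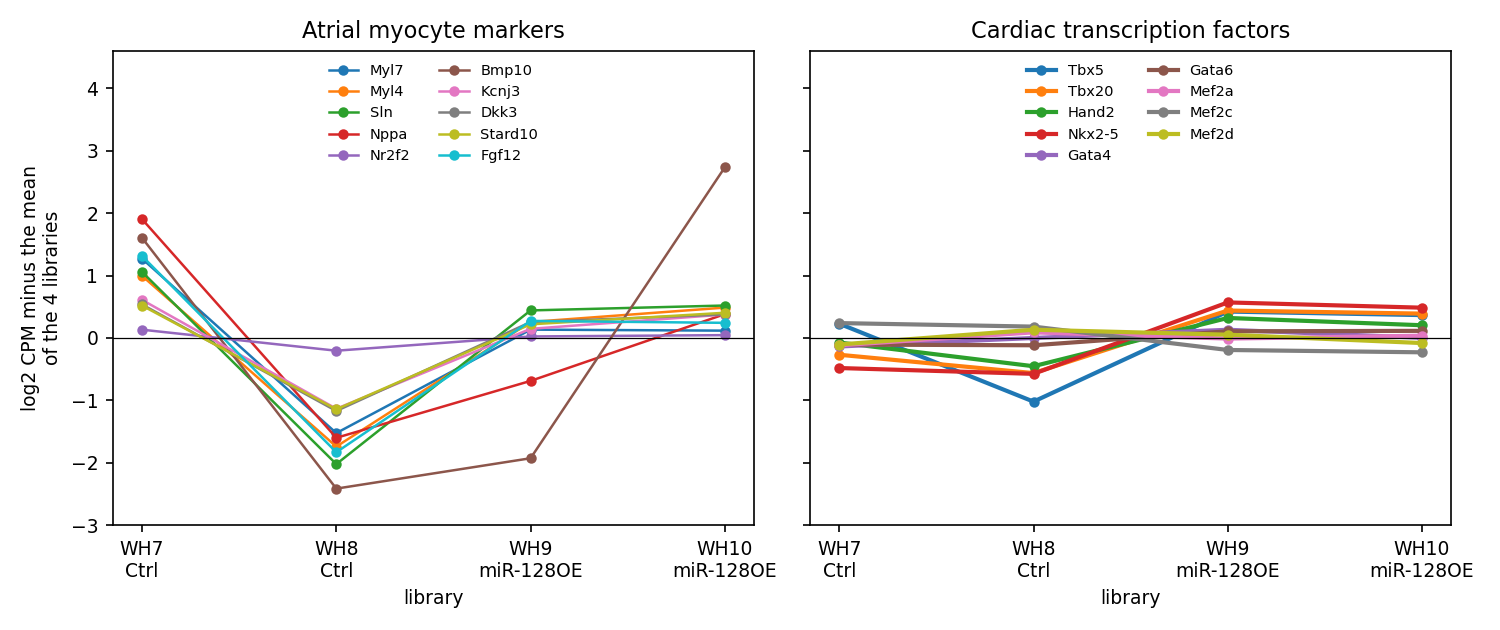
Left, the 10 atrial myocyte markers, and right, the 9 tested factors, as log2 CPM minus the mean of the 4 libraries, by library. The atrial markers drop from WH7 to WH8, with *Nr2f2* moving least, while among the factors *Tbx5* makes the widest step between those 2 Ctrl libraries.

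In miR-128OE hearts 3 factors rose and 1 fell. *Nkx2-5*, *Tbx20* and *Hand2* were higher, *Mef2c* was lower, and *Gata4*, *Gata6*, *Tbx5*, *Mef2a* and *Mef2d* did not pass the test. Calls are from the quasi-likelihood test of edgeR, with p-values adjusted over the 14266 genes (Benjamini-Hochberg) and a threshold of 0.05. The 4 called factors are 44.4% of the 9 tested, beside 31.5% of all genes tested, and 16.5% of all genes were higher (2347) and 15.0% lower (2143). Scaling to total counts in place of TMM gave 1612 higher and 2945 lower genes, which moved the higher share of the calls from 52.3% to 35.4% and the median of all genes from −0.01 to −0.11 on the log2 scale, and the same 4 factors were called in the same directions. The factors numbered 4 higher and 1 lower without WH7, 3 and 1 without WH8, 2 and 0 without WH9, and 2 and 0 without WH10. The share of all tested genes called in those fits was 34.6%, 31.2%, 10.7% and 15.6%, against 31.5% with all 4 libraries.

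The libraries of the groups did not overlap in CPM for 7 of the 9 tested factors, 6 higher and 1 lower in miR-128OE, beside 68.1% of all genes tested. The median log2 fold change of the 9 was 0.22, against −0.01 over all genes. Summed over the 10 factors, the level was 1095 CPM in WH7, 1088 in WH8, 1313 in WH9 and 1274 in WH10. These are bulk libraries, in which fewer cells of a type and less RNA per cell cannot be told apart.

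**Figure D2:**
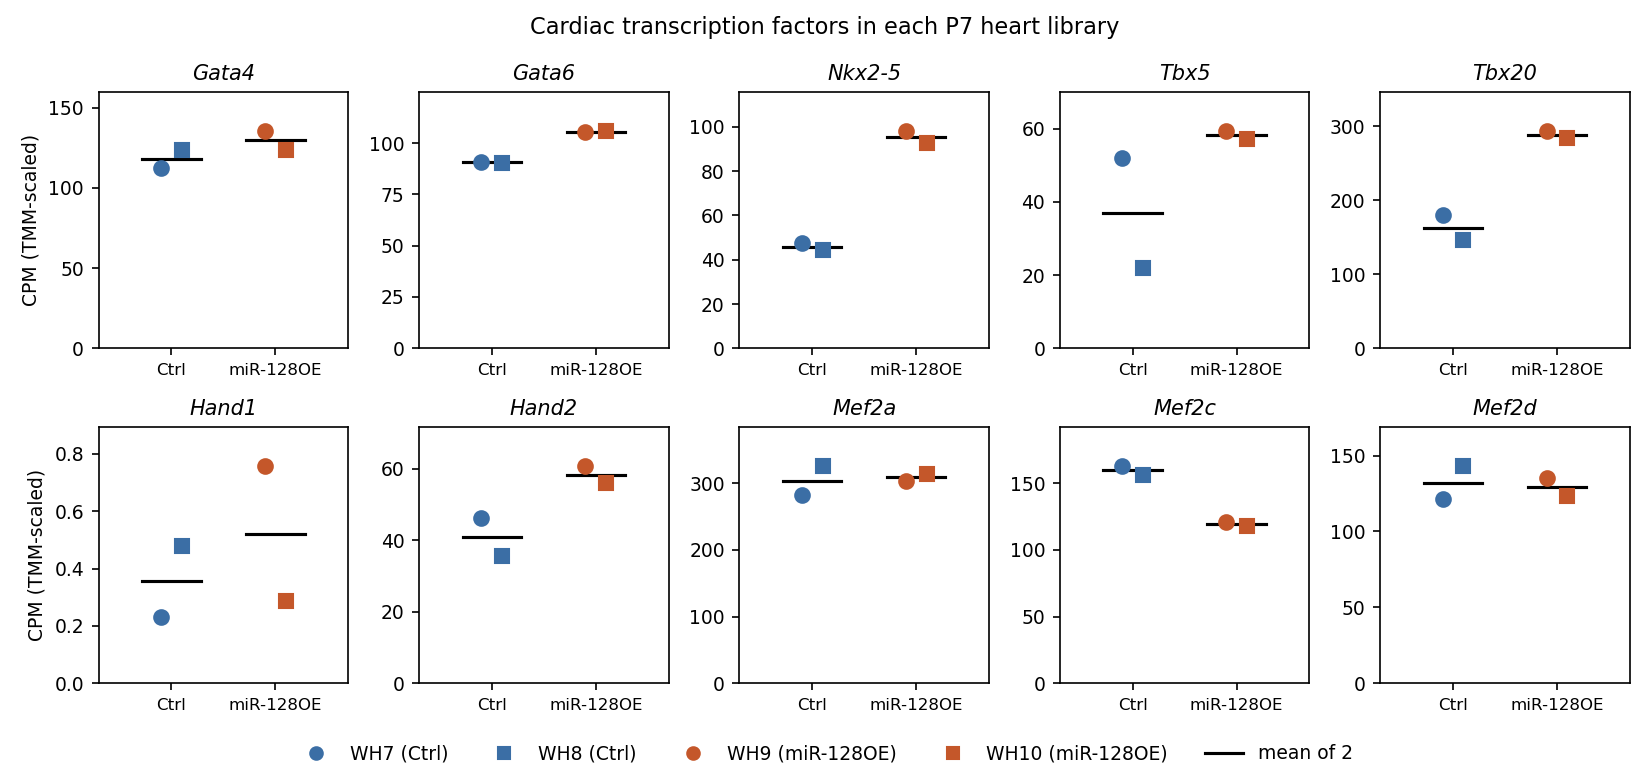
TMM-scaled CPM of the 10 factors in each library, with 1 panel per gene, axes from 0, and a line at the mean of the 2 libraries of a group. *Nkx2-5*, *Tbx20* and *Hand2* are higher in both miR-128OE libraries, *Mef2c* is lower in both, and the Ctrl libraries of *Tbx5* lie far apart.

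*Nkx2-5* showed the largest difference of the 9 factors. The gene (Entrez 18091, chr17:26838664-26845009, minus strand) encodes the homeobox factor that marks cardiac progenitors and later keeps up CM and conduction genes. It stood at 47.4 CPM in WH7 and 44.4 in WH8, and at 98.1 in WH9 and 92.6 in WH10. Every miR-128OE value was above every Ctrl value, and the groups lay much further apart than the libraries within them. Normalized counts were 540.4 ± 24.7 in Ctrl and 1123 ± 46.2 in miR-128OE (SD, n = 2), a 2.07-fold difference (log2 fold change 1.05, SE 0.09, edgeR adjusted p = 7.23e-05). Leaving out each library in turn kept the call, with log2 fold changes from 1.01 to 1.11.

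The GATA factors moved little. *Gata4* (Entrez 14463, chr14:63198922-63271692, minus strand) encodes a factor that opens cardiac enhancers and responds to hypertrophic signals. It stood at 113 CPM in WH7, 123.7 in WH8, 135 in WH9 and 124.0 in WH10. WH8 and WH10 were almost level, and the log2 fold change was 0.14 (SE 0.09, edgeR adjusted p = 0.261). *Gata6* (Entrez 14465, chr18:11052064-11085635, plus strand), a close relative of *Gata4* that is also active in smooth muscle and endoderm, stood at 90.9 and 90.2 CPM in WH7 and WH8 and at 105 and 106 in WH9 and WH10. The 2 groups of *Gata6* were tight and apart, with a log2 fold change of 0.22 (SE 0.08) and an edgeR adjusted p of 0.0559, just outside the threshold. With an offset for GC content and length the adjusted p was 0.0176, and over autosomal genes alone it was 0.0471.

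Of the T-box factors, *Tbx20* rose and *Tbx5* depended on the Ctrl library. *Tbx20* (Entrez 57246, chr9:24718138-24774303, minus strand), a factor needed for chamber growth and for the upkeep of adult CMs, stood at 179.8 CPM in WH7, 147 in WH8, 294 in WH9 and 284 in WH10. Its groups did not overlap, although the Ctrl libraries were further apart than the miR-128OE libraries. Normalized counts were 1922 ± 276 in Ctrl and 3400.4 ± 82.0 in miR-128OE (SD, n = 2), a 1.77-fold difference (log2 fold change 0.82, SE 0.10, edgeR adjusted p = 0.000503). Without any 1 library the call held, at log2 fold changes from 0.69 without WH8 to 0.98 without WH7.

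*Tbx5* (Entrez 21388, chr5:119832668-119885219, plus strand) acts in the atria, the left ventricle and the conduction system, and is stronger in atria than in ventricles. It stood at 51.9 CPM in WH7, 21.8 in WH8, 59.4 in WH9 and 57.1 in WH10. WH8 alone was low, and WH7 was close to the miR-128OE libraries. The log2 fold change was 0.62 with an SE of 0.28, the widest of the 9 factors, and it was not past the threshold (edgeR adjusted p = 0.119). Without WH8 it was 0.17 (adjusted p = 0.196), and without WH7 it was 1.41 (adjusted p = 1.80e-06). WH8 was also the lowest library for all 10 atrial markers, and the part of atrial tissue in the value of *Tbx5* was not tested.

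Of the HAND factors, *Hand2* rose and *Hand1* was hardly detected. *Hand2* (Entrez 15111, chr8:57320983-57324633, plus strand), which drives growth of the right ventricle and the outflow tract, stood at 46.2 CPM in WH7, 35.5 in WH8, 60.7 in WH9 and 56.0 in WH10. The groups did not overlap, and the 2 Ctrl libraries were further from each other than WH7 was from WH10. Normalized counts were 481 ± 88.9 in Ctrl and 687 ± 39.2 in miR-128OE (SD, n = 2), a 1.41-fold difference (log2 fold change 0.50, SE 0.12, edgeR adjusted p = 0.0143). The call was lost without WH9 (0.46, adjusted p = 0.123) and without WH10 (0.58, adjusted p = 0.0502), fits in which the lone miR-128OE library is assumed to vary as the Ctrl libraries do. Without WH8 the log2 fold change was 0.34 and without WH7 it was 0.71, and the call held in both.

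Part of the *Hand2* signal cannot be assigned to a strand. The exons of *Hand2os1*, a non-coding transcript on the opposite strand, share 461 bases with those of *Hand2*, 19.6% of its exon bases, and how the counting treated strand is not given in the sources used here. *Hand2os1* itself had 276 counts in WH7, 238 in WH8, 443 in WH9 and 529 in WH10. Overlaps of the other factors with opposite-strand genes were smaller, at 8.87% of exon bases in *Mef2d*, 2.06% in *Mef2a* and 1.43% in *Gata6*.

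*Hand1* (Entrez 15110, chr11:57828705-57832818, minus strand), the left ventricular counterpart of *Hand2* in the embryo, was at or near the floor. It had 3 counts in WH7, 4 in WH8, 9 in WH9 and 4 in WH10, or 0.233, 0.480, 0.757 and 0.286 CPM. The groups overlapped, and no difference was detectable at this depth.

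Of the 3 MEF2 genes, *Mef2c* fell and *Mef2a* and *Mef2d* did not pass the test. *Mef2c* (Entrez 17260, chr13:83504034-83667080, plus strand), the first of the family to come on in the heart field, stood at 163 CPM in WH7, 156 in WH8, 121 in WH9 and 118 in WH10. Both miR-128OE libraries were lower than both Ctrl libraries, and the libraries of a group lay close together. Normalized counts were 1878 ± 51.9 in Ctrl and 1403 ± 25.7 in miR-128OE (SD, n = 2), or 0.746-fold (log2 fold change −0.42, SE 0.08, edgeR adjusted p = 0.00322). With the GC and length offset the log2 fold change was −0.28 (edgeR adjusted p = 0.0243), and with total counts it was −0.52 (edgeR adjusted p = 0.00118). The call was lost without WH9 (−0.43, adjusted p = 0.0591) and without WH10 (−0.39, adjusted p = 0.0633), with almost the same size.

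*Mef2a* (Entrez 17258, chr7:67231163-67372858, minus strand), the main MEF2 protein of the postnatal heart, stood at 282 CPM in WH7, 326 in WH8, 304 in WH9 and 314 in WH10. Both miR-128OE libraries lay between the Ctrl libraries, and the log2 fold change was 0.03 (SE 0.09, edgeR adjusted p = 0.858), with its sign turned to −0.020 by upper-quartile scaling and to −0.074 by total counts. *Mef2d* (Entrez 17261, chr3:88142372-88172086, plus strand), a mediator of stress-dependent remodelling in the adult heart, stood at 121 CPM in WH7, 143 in WH8, 135 in WH9 and 123 in WH10. Its groups overlapped as well, with a log2 fold change of −0.03 (SE 0.10, edgeR adjusted p = 0.849), which became 0.040 with the GC and length offset.

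**Figure D3:**
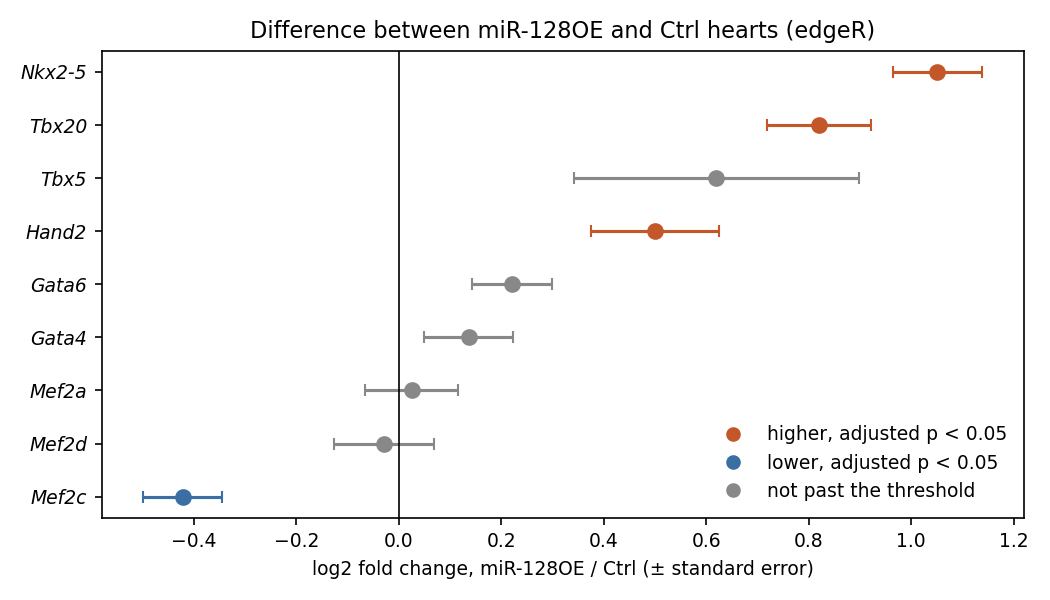
Log2 fold change, miR-128OE over Ctrl, of the 9 tested factors from edgeR, with bars of 1 standard error and colour by adjusted p at 0.05. *Nkx2-5* at 1.05, *Tbx20* at 0.82 and *Hand2* at 0.50 are called higher and *Mef2c* at −0.42 lower, and *Tbx5* at 0.62 has the widest bar.

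Ratios of counts within a library do not depend on the scaling between libraries. The ratio of *Mef2c* to *Mef2a* counts was 0.577 in WH7, 0.480 in WH8, 0.397 in WH9 and 0.375 in WH10, and that of *Mef2c* to *Mef2d* was 1.34, 1.09, 0.892 and 0.954. The ratio of *Mef2d* to *Mef2a* was 0.430, 0.439, 0.445 and 0.393, with the groups overlapping. So *Mef2c* was lower against either relative in both miR-128OE libraries. *Nkx2-5* against *Gata4* was 0.421, 0.359, 0.724 and 0.747, and *Tbx20* against *Gata4* was 1.60, 1.19, 2.17 and 2.29. *Hand2* against *Gata4* was 0.411 in WH7, 0.287 in WH8, 0.448 in WH9 and 0.452 in WH10, so WH7 was close to the miR-128OE libraries. *Tbx20* against *Tbx5* was 3.47, 6.71, 4.95 and 4.97, where the 2 Ctrl libraries lay on either side of the miR-128OE libraries.

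Levels of different genes are compared per kilobase of exon. Mean levels over the 4 libraries, in CPM per kilobase, were 41.1 for *Nkx2-5*, 31.7 for *Gata4*, 21.8 for *Mef2d*, 21.1 for *Hand2*, 20.9 for *Mef2a*, 18.8 for *Tbx20*, 15.1 for *Gata6*, 10.2 for *Tbx5*, 8.87 for *Mef2c* and 0.220 for *Hand1*. Neighbours in this order overlapped over the 4 libraries except at 3 steps, from *Gata4* to *Mef2d*, from *Gata6* to *Tbx5* and from *Mef2c* to *Hand1*. This order pools the genotypes, and for 4 pairs of factors it turned between them, with separate ranges in each. In the Ctrl libraries *Gata4* stood at 28.8 and 31.7 CPM per kilobase and *Nkx2-5* at 27.6 and 25.8, whereas in the miR-128OE libraries *Gata4* stood at 34.7 and 31.8 and *Nkx2-5* at 57.1 and 53.9. *Tbx20* likewise lay below *Mef2a* in both Ctrl libraries (15.0 and 12.2 against 19.2 and 22.2) and above it in both miR-128OE libraries (24.5 and 23.7 against 20.7 and 21.4), and it also passed *Mef2d*. *Hand2* lay below *Mef2d* in Ctrl (19.7 and 15.1 against 20.3 and 23.9) and above it in miR-128OE (25.8 and 23.8 against 22.6 and 20.6). These lengths count every annotated exon base of a gene, whether or not its transcripts in the heart hold it.

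**Figure D4:**
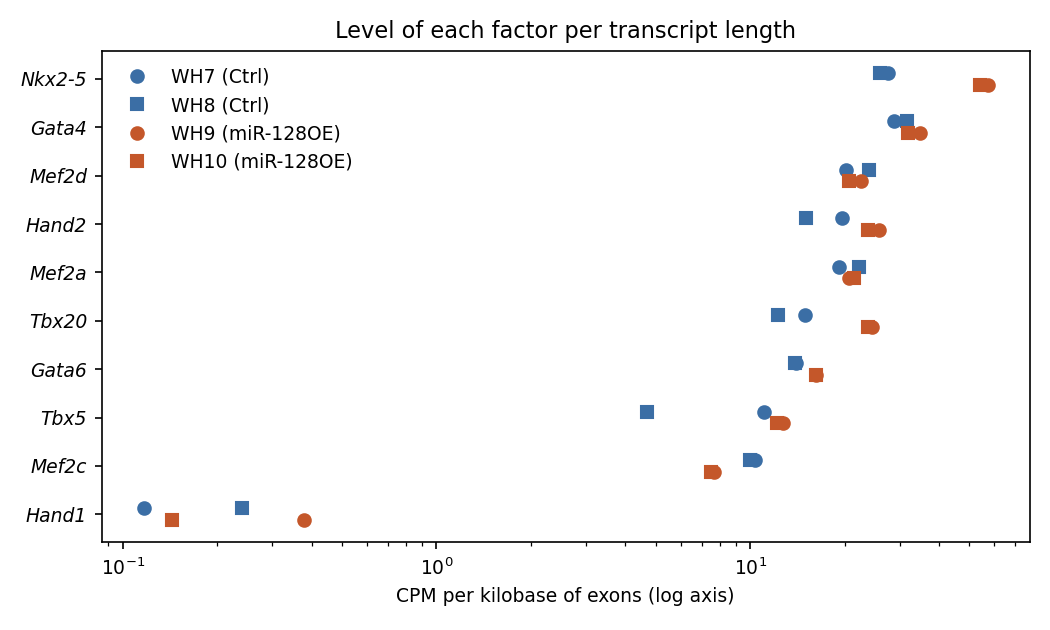
Level of each factor in each library in CPM per kilobase of annotated exons, on a log axis, ordered by the mean of the 4 libraries. *Nkx2-5* moves from just under *Gata4* in Ctrl to well above it in miR-128OE, and *Hand1* lies far to the left of the other 9.

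Genes with the profile most like that of *Nkx2-5* and *Mef2c*, the factors with the largest and smallest log2 fold change, were found by the root mean square (RMS) difference of centred log2 CPM over the 4 libraries. For *Nkx2-5* they were *Hspb1* (RMS 0.0146), *Nqo1* (0.0179), *Chpt1* (0.0230), *Cryab* (0.0251) and *Map1lc3a* (0.0288). *Hspb1* and *Cryab* encode small heat shock proteins, *Nqo1* a quinone reductase, *Chpt1* an enzyme of phosphatidylcholine synthesis and *Map1lc3a* an autophagosome protein. *Cryab* stood at 445 and 438 CPM in the Ctrl libraries and at 933 and 891 in the miR-128OE libraries. For *Mef2c* they were *Zfp955b* (RMS 0.0102), *Itsn2* (0.0154), *Rftn2* (0.0178), *Cisd3* (0.0193) and *Ndc1* (0.0195). With 4 libraries such nearness describes the libraries and no more.

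Other cardiac transcription factors, a list of 31 that included further GATA, T-box, IRX, HEY and NFAT genes, showed no common direction. Of the 26 tested, 4 rose and 5 fell, 34.6% beside 31.5% of all genes, and the median log2 fold change was −0.04. *Srf*, the serum response factor that works with GATA4 and NKX2-5 on sarcomeric actin genes, stood at 72.5 and 67.6 CPM in Ctrl and 164 and 160.3 in miR-128OE (log2 fold change 1.21, SE 0.08, edgeR adjusted p = 2.74e-05). The 2 groups of *Srf* lay far apart and the libraries within each were close. *Nfatc1*, which marks endocardium and valves, rose by 0.62 on the log2 scale (adjusted p = 0.00517), and *Hey1*, a Notch target of the atria and vessels, by 0.37 (adjusted p = 0.0384).

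*Hey2*, *Irx3* and *Irx4*, which take part in patterning the ventricle, fell. *Hey2*, a Notch target of the compact ventricular wall, stood at 23.1 and 21.5 CPM in Ctrl and 12.6 and 12.1 in miR-128OE (log2 fold change −0.85, SE 0.13, edgeR adjusted p = 0.00166). *Irx3*, which acts in the ventricular conduction system, changed by −0.81 (adjusted p = 0.00178) and *Irx4*, a ventricular homeobox gene, by −0.63 (adjusted p = 0.0113). The groups did not overlap in CPM for any of these 3 genes. The rest of the called genes, named after their values were seen, were *Hopx* (0.28) on the higher side and *Nfatc2* (−0.62) and *Irx5* (−0.57) on the lower side. *Mef2b*, *Nkx2-6* and *Mesp1* had 0 counts in every library, and *Isl1* and *Irx6* were too low to test.

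Some calls of the list were lost when 1 library was left out. The call of *Nfatc1* was lost without WH9 (0.50, edgeR adjusted p = 0.0761). That of *Hey1* was lost without WH8 (0.25), WH9 (0.46) or WH10 (0.30), and also under upper-quartile (0.32) and total count (0.27) scaling and in DESeq2 (0.38). The call of *Hopx* was lost under upper-quartile and total count scaling, and those of *Nfatc2* and *Irx5* without WH9 or WH10. The call of *Irx4* was lost without WH9 (−0.60) or WH10 (−0.64), and it held without WH7 (−0.88) and without WH8 (−0.35), which moved its size. Without WH9 the list had 1 gene higher and 2 lower, without WH10 2 and 2, without WH7 6 and 6, and without WH8 4 and 7. Over all genes the share called also fell without WH9 (10.7%) and without WH10 (15.6%).

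Partners and corepressors of these factors mostly did not pass the test. Of 26 genes, all tested, 2 rose and 6 fell, 30.8% beside 31.5% of all genes, with a median log2 fold change of −0.07. *Crebbp*, a histone acetyltransferase that GATA and MEF2 proteins recruit, stood at 99.7 and 115 CPM in Ctrl and 68.3 and 67.7 in miR-128OE (log2 fold change −0.66, SE 0.09, edgeR adjusted p = 0.00096). Its groups were well apart. *Hdac5*, a class II deacetylase that holds MEF2 inactive, changed by −0.39 (adjusted p = 0.00519) and *Id2*, an inhibitor of basic helix-loop-helix factors, by −0.49 (adjusted p = 0.0187).

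The remaining genes that fell in this list, named after their values were seen, were *Tcf4* (−0.31), *Tcf3* (−0.28) and *Tcf12* (−0.27), which encode the E proteins with which HAND2 pairs. In DESeq2 and with the GC and length offset *Crebbp*, *Hdac5* and *Id2* kept their calls, while most of the calls of *Tcf4*, *Tcf3* and *Tcf12* were lost. *Id1*, a relative of *Id2*, rose by 0.48 (edgeR adjusted p = 0.00389) and *Wwtr1*, a coactivator of TEAD factors, by 0.33 (adjusted p = 0.0295). The calls of *Hdac5* (−0.35 and −0.41) and *Id2* (−0.39 and −0.56) were lost without WH9 and without WH10, that of *Id2* also without WH7 (−0.31), and that of *Wwtr1* without WH8 (0.25), without WH9 (0.23) and under upper-quartile (0.28) and total count (0.23) scaling. Without WH9 or WH10 only *Crebbp* still passed on the lower side, in fits where the share called fell over all genes as well.

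Known target genes of these factors were higher more often than lower. Of 42 genes, 41 were tested, 22 rose and 3 fell, beside 16.5% and 15.0% of all genes, and the median log2 fold change was 0.44 against −0.01. Most of them are also general CM genes. The genes that rose included *Actc1*, cardiac α-actin, at 3635 and 3743 CPM in Ctrl and 9774 and 8908 in miR-128OE (log2 fold change 1.34, SE 0.09, edgeR adjusted p = 3.35e-05). *Acta1*, skeletal α-actin, stood at 43.9, 41.4, 90.9 and 95.4 CPM in WH7, WH8, WH9 and WH10 (log2 fold change 1.12), and *Myh7*, the β-myosin heavy chain of the fetal and stressed heart, at 566, 780.2, 1961 and 1966 CPM (log2 fold change 1.55). In all 3 genes the miR-128OE libraries lay close together and far above both Ctrl libraries.

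*Nppb*, the gene of brain natriuretic peptide and a classic GATA4 target, stood at 69.7 and 107 CPM in Ctrl and at 239.9 and 303 in miR-128OE (log2 fold change 1.63, SE 0.18, edgeR adjusted p = 0.000293). *Myh6*, the adult α-myosin heavy chain whose promoter drives tTA in these mice, rose by 0.33 (adjusted p = 0.0207), and that call was lost without WH9 (0.34), without WH10 (0.35) and under upper-quartile scaling (0.29). *Nppa*, a target of NKX2-5, GATA4 and TBX5, had a log2 fold change of −1.08 (SE 0.78, adjusted p = 0.320), which became 1.55 (adjusted p = 0.000863) without WH7 and −1.95 (adjusted p = 6.99e-05) without WH8. *Gja5*, a connexin of the atria and the conduction system and a target of TBX5 and NKX2-5, stood at 77.7, 51.6, 51.4 and 38.8 CPM in WH7, WH8, WH9 and WH10 (log2 fold change −0.54, adjusted p = 0.0519). It passed the threshold in DESeq2 (−0.52, adjusted p = 0.0445), in the likelihood ratio test (0.0258), with upper-quartile factors (0.0427) or total counts (0.029), with no filter (8.50e-06), with at least 50 counts in 2 libraries (0.0455) and without WH8 (−0.79, adjusted p = 0.000416). Without WH7 it stood at −0.20 (adjusted p = 0.302) and without WH10 at −0.32 (adjusted p = 0.340). *Nppa* and *Gja5* were highest in WH7, as the atrial markers were, and the part of atrial tissue in them was not tested.

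The targets that fell included *Ryr2* and *Ankrd1*. *Ryr2*, the calcium release channel of the sarcoplasmic reticulum, changed by −0.40 (edgeR adjusted p = 0.00655), and *Ankrd1*, a stress-responsive ankyrin repeat protein, by −0.50 (adjusted p = 0.0094). Without WH9 neither call held (−0.41 for *Ryr2* and −0.33 for *Ankrd1*), without WH10 *Ryr2* was also lost (−0.37), and with the GC and length offset *Ryr2* stood at −0.16 (adjusted p = 0.173). Without WH9 or WH10 fewer genes of the list passed in either direction, as was so over all genes, and without WH7 or WH8 more genes of the list passed.

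Of the kinases, phosphatases and inhibitors upstream of MEF2, HAND and NFAT proteins, most did not pass the test. Of 11 genes tested, 3 rose and 0 fell in edgeR, 27.3% beside 31.5% of all genes called, with a median log2 fold change of 0.03. On the lower side 2 had an unadjusted p under 0.05, and DESeq2 called 0. *Sik1*, a salt-inducible kinase that phosphorylates class II deacetylases, stood at 33.2 and 31.5 CPM in Ctrl and 62.8 and 71.4 in miR-128OE (log2 fold change 1.05, SE 0.10, edgeR adjusted p = 0.000159). *Rcan1*, a calcineurin inhibitor that NFAT factors induce, rose by 0.64 (adjusted p = 0.000687) and *Gsk3b*, a kinase that acts against NFAT, by 0.34 (adjusted p = 0.00996). The call of *Gsk3b* was lost without WH9 (0.34) and without WH10 (0.37).

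**Figure D5:**
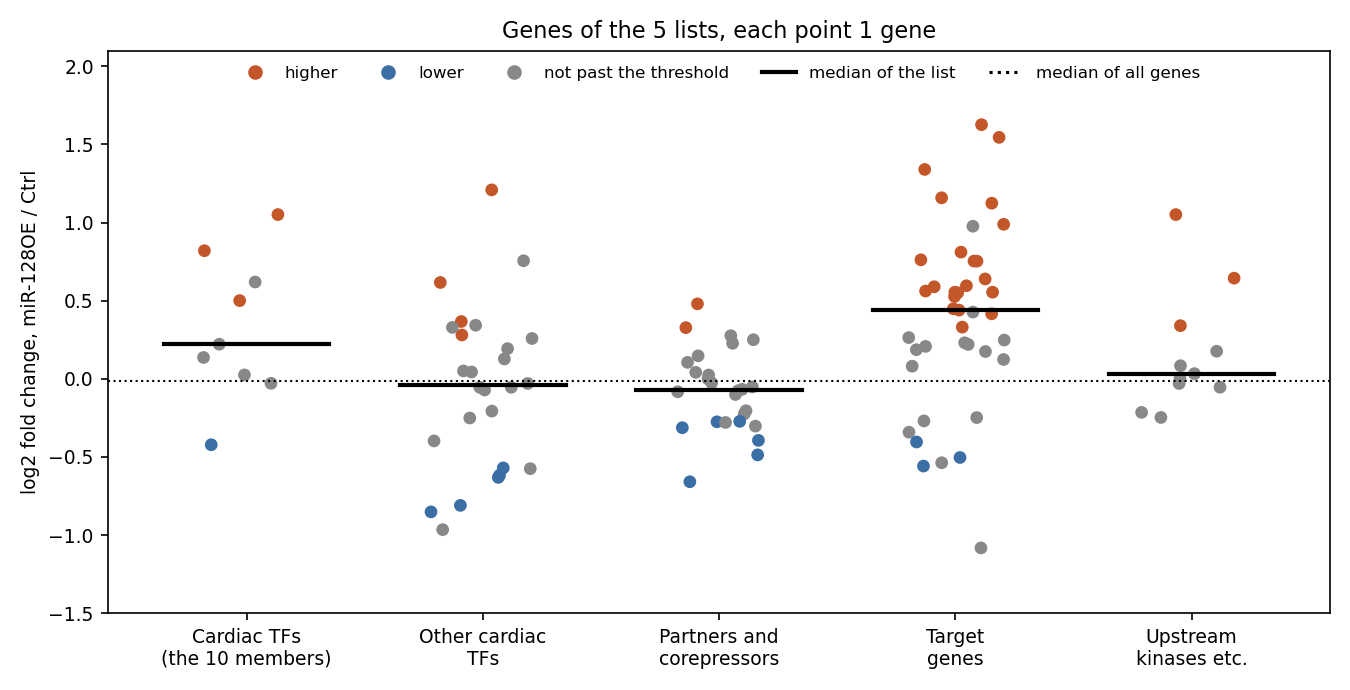
Log2 fold change, miR-128OE over Ctrl, of each tested gene in the 5 lists, coloured by edgeR adjusted p at 0.05, with a bar at the median of the list and a dotted line at the median of all genes. The target genes have their median at 0.44, and the other cardiac factors and the partners and corepressors have theirs near the dotted line.

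Markers of CMs moved with genotype in both directions. Of 8 CM markers 4 rose and 2 fell, 75.0% beside 31.5% of all genes called, and their summed level was 40407 CPM in WH7, 42404 in WH8, 49784 in WH9 and 48813 in WH10, led by *Myh6*. The genes that rose were *Actn2* (0.76), *Myl3* (0.64), *Pln* (0.59) and *Myh6* (0.33), and those that fell were *Ryr2* (−0.40) and *Ttn* (−0.34), the giant spring of the sarcomere. *Tnnt2* and *Tnni3*, the cardiac troponins, had log2 fold changes of 0.12 and 0.22 and did not pass the test. Of 5 ventricular markers *Myl3* rose and *Irx4* and *Hey2* fell, 60.0% beside the same 31.5%, and the summed level was 13050.1, 16156, 19115 and 19036.5 CPM in WH7, WH8, WH9 and WH10, led by *Myl2*. The part of CM content in the levels of *Nkx2-5*, *Tbx20*, *Hand2* and *Mef2c* was not tested.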

How the data were processed

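Reads had been filtered for quality by the authors, mapped to mm10 (TopHat2) and assigned to known genes with Bioconductor tools, and the deposited table holds raw counts per gene for the 4 libraries. The gene models, the use of strand and the rule for reads that match several genes are not given in the sources used here. Hearts at other ages were not analysed here. Of 24454 Entrez identifiers, 24380 were matched to a symbol and 24102 to GENCODE M21 (GRCm38), from which coordinates, exon lengths and 3′UTRs were taken.

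Counts were fitted with edgeR 4.0.16 in R 4.3.3 (filterByExpr with minimum counts of 10 and 15 in total, TMM factors, quasi-likelihood test without covariates), after the edgeR model named in the study's methods, and p-values were adjusted by Benjamini-Hochberg over all genes tested. Standard errors were derived from the log2 fold change and its F statistic (change over the root of F). The biological coefficient of variation was 8.78% and the prior degrees of freedom 7.44. CPM were computed with TMM-scaled library sizes, and normalized counts are set at the mean effective library size. The scripts were tested on simulated data. Alternatives were DESeq2 1.42.0, limma 3.58.1 (voom), edgeR's likelihood ratio test, other scaling factors and filters, a required change of 1.5-fold, an offset for GC content and length (known for 99.3% of tested genes), autosomal genes only, and each library left out.

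Members and gene lists were chosen with earlier results of these data known. Named were the 10 factors, the 3 higher and 3 lower called genes with the smallest p in each list of other cardiac factors, partners, targets and upstream enzymes, 5 preset targets, the gene with the highest mean CPM and those at 0 of each marker list, and the 5 genes nearest in profile to 2 of the factors. Marker lists covered CMs, ventricular and atrial myocytes, conduction system, fibroblasts, endothelium, endocardium, smooth muscle with pericytes, epicardium, macrophages, lymphocytes, erythroid cells and Schwann cells with neurons. Some genes that this rule names are not reported here.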

Additional observations from a re-analysis of the deposited data

How the results depend on the processing

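The calls of *Nkx2-5* and *Tbx20* held under every alternative run. The log2 fold change of *Nkx2-5* was 0.91 with the GC and length offset and 0.95 with total counts, and that of *Mef2c* was −0.28 and −0.52. When 1 library was left out, log2 fold changes ranged from 1.01 to 1.11 for *Nkx2-5* and from 0.69 to 0.98 for *Tbx20*. In the same fits *Hand2* ranged from 0.34 to 0.71, *Mef2c* from −0.45 to −0.39, *Tbx5* from 0.17 to 1.41, *Gata4* from 0.07 to 0.22, *Gata6* from 0.22 to 0.24, *Mef2a* from −0.076 to 0.14 and *Mef2d* from −0.15 to 0.095. *Hand2* and *Mef2c* lost their calls when WH9 or WH10 was left out, which leaves 3 libraries and 1 in the miR-128OE group, whose spread is then taken from the Ctrl libraries. Not past the threshold otherwise, *Gata6* passed with the GC and length offset (0.30) and over autosomal genes (0.23), and *Tbx5* passed with no filter and without WH7 (1.41). With no filter *Tbx5* had almost the same size and a smaller SE (0.63, SE 0.11, against 0.62, SE 0.28, in the main fit). *Mef2a*, near 0, changed sign with upper-quartile factors (−0.020), total counts (−0.074) and without WH7 (−0.076), and so did *Mef2d* with the GC and length offset (0.040), without WH8 (0.095) and without WH10 (0.054). *Nppa* changed sign without WH7 (1.55) and stood at −1.95 without WH8. With no filter *Nppa* was called lower at almost the same size (−1.07, SE 0.09, against −1.08, SE 0.78, in the main fit). Its Ctrl libraries stood at 2642 CPM in WH7 and 233 in WH8.

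Requiring a change of 1.5-fold left 935 genes higher and 1187 lower, among them 2 of the factors higher (without *Hand2*) and 0 lower, 2 other cardiac factors higher, 0 partners higher and 1 lower, and 13 targets higher and 0 lower. DESeq2 called 1317 genes lower and 5 targets lower. Upper-quartile factors gave 2 other cardiac factors higher, 1 partner higher, 5 targets lower and 1 upstream enzyme lower, and total counts gave 2, 1, 5 and 2. Over all genes upper-quartile factors gave 1980 higher and 2499 lower and total counts 1612 and 2945, against 2347 and 2143 in the main fit. With no filter 8 other cardiac factors were higher and 8 lower, 7 targets lower and 1 upstream enzyme lower. With at least 50 counts in 2 libraries 5 targets and 1 upstream enzyme were lower. The share of all tested genes called was 28.2% with no filter and 35.8% with at least 50 counts, against 31.5% in the main fit. The causes of these moves were not tested. Leaving out 1 library gave 897 to 2654 genes higher and 667 to 2384 lower, the low ends without WH9. The factors then had 2 to 4 higher and 0 to 1 lower, the other cardiac factors 1 to 6 and 2 to 7, the partners 1 to 3 and 1 to 7, the targets 14 to 28 and 0 to 8, and the upstream enzymes 2 to 3 and 0 to 2. A paired analysis was not run, because the sample titles name only the library and its group and state no pairing between the groups. Depth limits *Hand1*, at 3 to 9 counts a library. With 2 libraries a group the edgeR quasi-likelihood p-values rest largely on the spread shared across genes, and also on the gene's own spread.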

Other observations

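The counts for markers of the other cells of the heart stand beside 31.5% of all tested genes called in edgeR and 21.8% in DESeq2. Of 8 endothelial markers *Pecam1* (log2 fold change 0.42) and *Cdh5* (0.27) rose and *Egfl7* (−0.36) and *Emcn* (−0.29) fell in edgeR, while DESeq2 called 2 higher and 1 lower, and the summed level was 3330.2, 3410, 3491 and 3298 CPM in WH7, WH8, WH9 and WH10, led by *Fabp4*, with a median log2 fold change of −0.08. Of 8 smooth muscle and pericyte markers *Acta2* (0.94), *Abcc9* (0.43) and *Rgs5* (0.29) rose and *Myh11* (−0.64) fell in edgeR, while DESeq2 called 3 higher and 0 lower, with *Acta2*, smooth muscle α-actin and the highest of the list in mean CPM, at 627, 579, 1060.2 and 1253 CPM and a median log2 fold change of 0.20 for the list. Of 7 endocardial markers *Tmem100* (0.68) and *Nfatc1* (0.62) rose and 0 fell in edgeR or DESeq2 (1 at an unadjusted p under 0.05), while the median log2 fold change of the 7 was −0.35, opposite in sign to the 2 called genes, with a summed level of 333, 210.2, 262 and 277 CPM, led by *Ednrb* and lowest in WH8 for 6 of the 7 genes.

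Of 8 fibroblast markers *Lum* (0.63) rose and 0 fell in edgeR or DESeq2 (0 at an unadjusted p under 0.05), and DESeq2 did not call *Lum*. The median log2 fold change of the 8 was 0.30. *Col3a1*, the highest of the list in mean CPM, stood at 3238, 2088, 3244 and 3303 CPM in WH7, WH8, WH9 and WH10. Of 8 conduction system markers tested *Vsnl1* (1.45) rose, 0 fell in edgeR (1 at an unadjusted p under 0.05) and DESeq2 called 1 lower, and *Smoc2* was the highest in mean CPM. The median log2 fold change of the 8 was 0.27. Of 7 epicardial markers, led by *Aldh1a2*, edgeR and DESeq2 called 0 (2 at an unadjusted p under 0.05 in edgeR, 1 each way), and the median log2 fold change was −0.62, with a summed level of 205, 131, 167 and 150.1 CPM.

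Of 8 macrophage markers, led by *Csf1r*, and 5 lymphocyte markers, edgeR and DESeq2 called 0, with 0 at an unadjusted p under 0.05, and the median log2 fold changes were −0.18 and −0.31. The summed level was 123, 84.9, 93.1 and 96.2 CPM for macrophages and 10.3, 11.9, 10.3 and 11.9 CPM for lymphocytes. *Hba-a1*, *Hba-a2*, *Hbb-bs* and *Hbb-bt*, the adult globin genes, are listed at 0 in every library. How reads that match several genes were counted is not given in the sources used here, so these zeros are not read as absence of the transcripts. *Alas2*, the erythroid enzyme of haem synthesis, stood at 37.8 and 25.8 CPM in Ctrl and 69.9 and 64.2 in miR-128OE (log2 fold change 1.05, edgeR adjusted p = 0.00106). Of 4 Schwann cell and neural markers tested, 1 rose and 1 fell in edgeR and in DESeq2, with a median log2 fold change of −0.11.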
